A study of Homo sapiens with 18 samples.

Results

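EGR1 and the transcription factors of the AP-1 complex were followed across 18 RNA-seq samples of OVCAR5, a human ovarian cancer cell line. The members were 10 genes chosen by symbol, namely EGR1, FOS, FOSL1, FOSL2, JUN, JUNB, JUND, ATF3, IER2 and IER3, out of 60483 gene identifiers in the table. All 10 had a mean of at least 1 TPM over the 18 samples (TPM is a transcript abundance scaled to transcript length and to the total of the library) and were among the 13789 genes tested. The group was chosen because EGR1 was already known to be clearly higher with stearate, so the EGR1 values between the fatty acid groups, and for how the rise with stearate differed with the inhibitor, are a description and carry no test.

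Wild-type cells were kept for 24 h in medium with fatty acid-free bovine serum albumin, in 6 conditions of 3 samples each. Stearate, a saturated fatty acid, was given at 50 µM and oleate, a monounsaturated fatty acid, at 50 µM, and the control medium held neither. Each of these 3 media contained either the vehicle DMSO or 1 µM CAY10566, an inhibitor of stearoyl-CoA desaturase-1 (SCD1), the enzyme that turns stearate into oleate. Conditions are named by what the medium held, so that the control medium gives the conditions DMSO and CAY10566 and the fatty acid media give, for example, stearate+DMSO and oleate+CAY10566. Each fatty acid group (control, stearate or oleate) pools the DMSO and CAY10566 samples, 6 in all. The study's methods describe the treatments as made in triplicate in multi-well plates and speak in general of independent in vitro experiments, but do not say whether the 3 sequenced samples of a condition came from separate cultures or days, so the p-values measure the spread between these samples, which may be technical.

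Epithelial markers were high in every sample, for example KRT8 at 769.92 to 1003.61 TPM, and the leukocyte marker PTPRC had a median of 0 TPM. PECAM1 and DES stayed under 1 TPM, while the fibroblast marker COL1A1 was 3.10 to 7.17 TPM, and the sum of these 4 markers of other cell types was 3.68 to 6.09 TPM in control, 3.99 to 6.66 in stearate and 4.54 to 8.06 in oleate samples. The labels call the line high-grade serous, but of 5 markers of that type only PAX8 was well above 1 TPM (7.64 to 16.9 TPM), while WT1 and SOX17 reached no more than 0.52 and 0.13 TPM and MUC16 and ESR1 no more than 1.04 and 0.87 TPM. The summed TPM of 6 epithelial markers ran from 2992 to 3134 in control, 2410 to 2602 in stearate and 2729 to 3045 in oleate samples. Its part in the results below was not tested. CAY10566 replicate 3 stood apart from the other 5 control samples on the first principal component (14.2 against -19.9 to -12.2), and the values that turn on it are also given without it. TPM keeps no sequencing depth, so the number of reads behind a value is unknown.

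Immediate-early genes are those that cells transcribe within minutes of a growth factor, stress or serum signal, without making new protein first. EGR1 is a zinc finger transcription factor of this class. AP-1 is a dimer in which a Jun protein (JUN, JUNB or JUND) pairs with another Jun, with a Fos protein (FOS, FOSB, FOSL1 or FOSL2) or with a related factor such as ATF3. Fos proteins do not bind DNA as dimers among themselves and so depend on a Jun partner. FOSL1, also called FRA-1, is the stable Fos protein of many invasive carcinoma lines. IER2 and IER3 are short immediate-early genes induced by the same signals, and IER3 is known as a regulator of cell survival.

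The genes lie on 7 chromosomes of the GRCh38 build. EGR1 spans chr5:138465479-138469303 on the plus strand, FOS chr14:75278826-75282230 on the plus strand and FOSL1 chr11:65892049-65900573 on the minus strand. FOSL2 spans chr2:28392448-28417317 and ATF3 chr1:212565334-212620777, both on the plus strand, while JUN (chr1:58776845-58784048) and IER3 (chr6:30743199-30744548) are on the minus strand. JUNB (chr19:12791486-12793315, plus strand) and JUND (chr19:18279694-18281622, minus strand) are on chromosome 19 with IER2 (chr19:13150411-13154911, plus strand), and both, like JUN, have a single exon in their canonical transcript. JUNB overlaps HOOK2 on the opposite strand, FOSL2 overlaps FOSL2-AS1 and, on its own strand, the long noncoding RNA gene ENSG00000270640, IER3 overlaps IER3-AS1 and HCG20, and IER2 overlaps 2 antisense long noncoding RNAs. The library kit marked the strand, but whether the counting used it is not given in the sources used here, so reads of these 4 genes and of their antisense partners may not have been told apart. Strand does not separate FOSL2 from the gene on its own strand.

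RefSeq promoter windows (GRCh38.p14, 250 bases before to 50 bases after the start site) were found for 8 of the 10 members, 9 windows in all. The windows of EGR1, FOS and JUNB are shown because these 3 members were higher in every stearate sample than in every control sample, and that of FOSL2 because it holds the AP-1 motif itself. The share of all genes higher in every stearate sample than in every control was not counted. ATF3 was also higher in every stearate sample, and its 2 windows are described only, 1 with TATAAA at -230 to -225 and 1 with no match. Capitals mark motif matches.
EGR1: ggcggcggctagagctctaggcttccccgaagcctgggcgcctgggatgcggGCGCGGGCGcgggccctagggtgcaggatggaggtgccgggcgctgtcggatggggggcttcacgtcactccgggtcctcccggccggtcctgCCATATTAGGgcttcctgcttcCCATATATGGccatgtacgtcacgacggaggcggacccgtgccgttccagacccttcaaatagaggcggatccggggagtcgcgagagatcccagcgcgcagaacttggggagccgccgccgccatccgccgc
FOS: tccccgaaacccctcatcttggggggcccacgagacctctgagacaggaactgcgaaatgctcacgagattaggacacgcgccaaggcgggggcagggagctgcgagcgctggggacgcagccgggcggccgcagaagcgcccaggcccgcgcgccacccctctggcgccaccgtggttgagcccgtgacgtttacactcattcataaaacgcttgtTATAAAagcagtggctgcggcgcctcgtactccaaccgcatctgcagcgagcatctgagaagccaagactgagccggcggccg
JUNB: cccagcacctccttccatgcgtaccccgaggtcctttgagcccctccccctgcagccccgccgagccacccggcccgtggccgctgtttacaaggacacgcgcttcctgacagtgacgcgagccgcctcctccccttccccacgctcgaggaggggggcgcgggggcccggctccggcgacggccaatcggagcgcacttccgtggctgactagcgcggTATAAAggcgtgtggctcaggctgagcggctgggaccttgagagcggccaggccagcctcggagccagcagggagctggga
FOSL2: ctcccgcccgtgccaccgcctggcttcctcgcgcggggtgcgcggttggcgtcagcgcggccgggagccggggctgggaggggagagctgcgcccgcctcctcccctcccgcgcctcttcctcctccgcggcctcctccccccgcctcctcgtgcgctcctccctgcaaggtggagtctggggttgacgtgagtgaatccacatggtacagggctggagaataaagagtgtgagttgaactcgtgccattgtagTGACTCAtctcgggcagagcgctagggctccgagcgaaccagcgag
The EGR1 window (chr5:138465229-138465528, plus strand) held 2 CArG boxes, the motif bound by serum response factor, at positions -105 to -96 and -83 to -74 from the start site. A CArG box was found in 1.29% of 35116 promoter windows of the same length, searched on both strands. The capitals nearest the 5′ end of the EGR1 window, at -198 to -190, match GCGNGGGCG, the motif bound by EGR1 itself, which 9.43% of windows held on either strand. FOS (chr14:75278578-75278877) and JUNB (chr19:12791236-12791535), both on the plus strand, each carried TATAAA, at -33 to -28 and -31 to -26, a match that 7.33% of windows held on the plus strand of the gene. FOSL2 (chr2:28392608-28392907, plus strand) carried the AP-1 motif TGACTCA at 5 to 11 bases after the start site, which 4.95% of windows held on either strand. The cyclic AMP response element TGACGTCA was matched in JUND at -200 to -193 and in 1.85% of all windows. The windows of JUN and IER2 held none of these 5 motifs. A match is a sequence description and does not show that a factor was bound there.

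The members differed widely in level. FOSL1 and IER3 were the most abundant, with means of 477 ± 21.1 and 587 ± 37.4 TPM (SD, n = 18), ranks 247 and 212 among the tested genes. JUNB (94.7 ± 9.95 TPM), IER2 (82.9 ± 6.31 TPM), JUN (64.0 ± 4.91 TPM) and ATF3 (59.1 ± 7.50 TPM) followed, then FOSL2 (41.9 ± 4.69 TPM), JUND (33.0 ± 3.62 TPM) and EGR1 (28.6 ± 10.6 TPM). FOS was the least abundant at 8.05 ± 1.69 TPM (SD, n = 18), so the mean of FOSL1 was 59.3 times that of FOS.

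**Figure D1:**
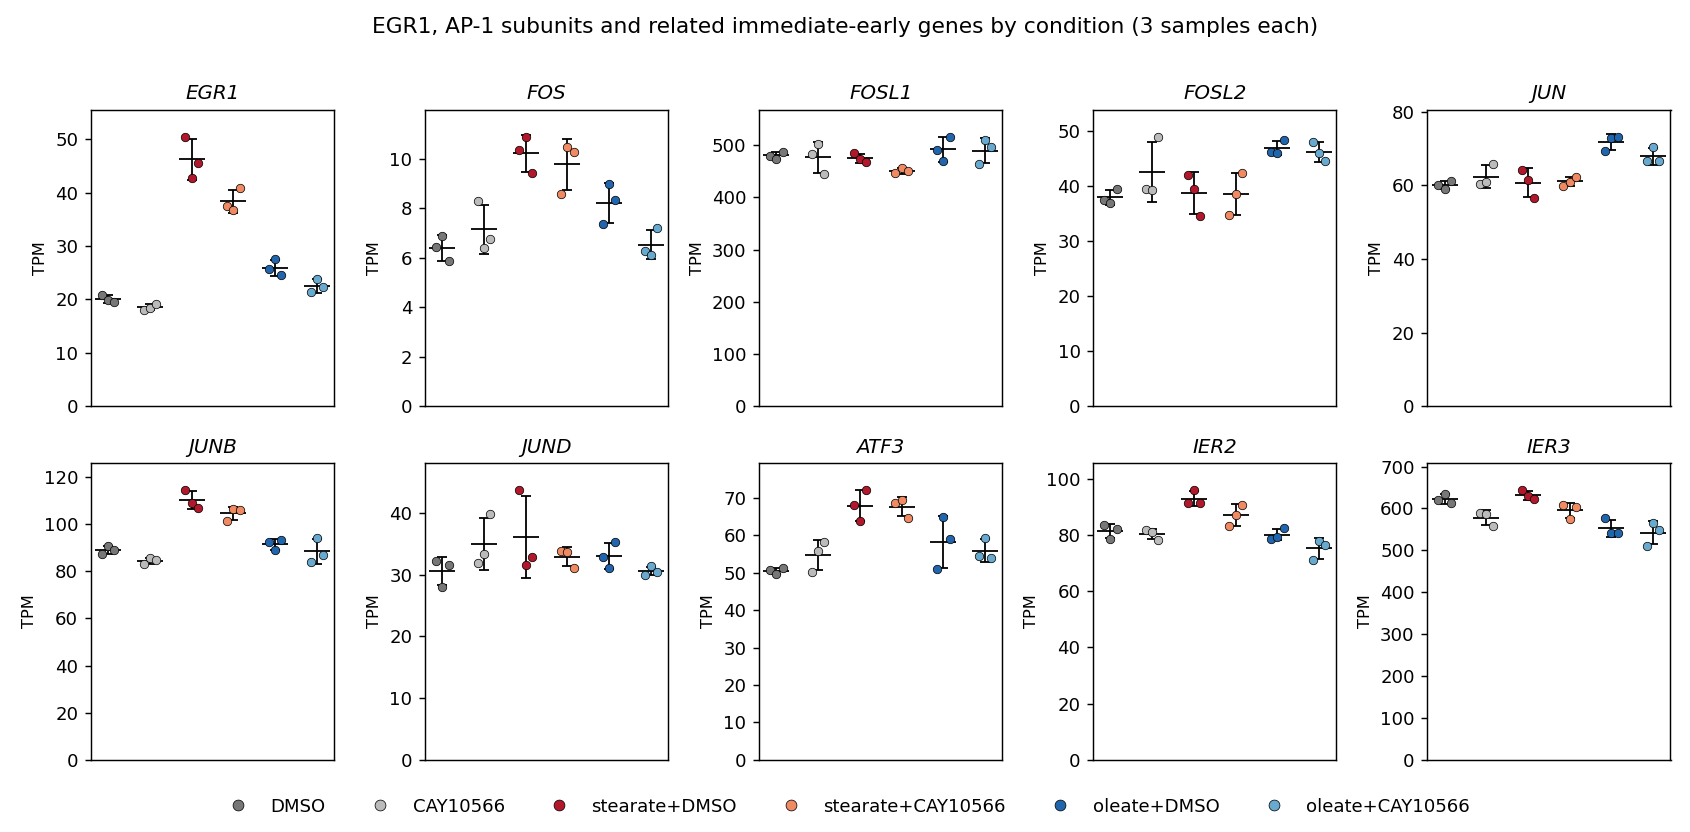
TPM of the 10 members in each of the 18 samples. Points are samples, horizontal bars are means and whiskers are SD (n = 3), every vertical axis starts at 0 and conditions run from left to right in the order of the legend. EGR1 falls in steps from stearate+DMSO (42.81 to 50.43 TPM) to CAY10566 (18.04 to 19.19 TPM), while FOSL1 stays between 444.14 and 515.63 TPM.

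The measured Fos transcripts of these cells were mostly FOSL1. The summed TPM of FOS, FOSB, FOSL1 and FOSL2 was 528 ± 16.3 in control, 514 ± 16.5 in stearate and 547 ± 21.5 in oleate samples (SD, n = 6). FOSL1 made up 90.2% ± 0.875 of this sum (SD, n = 18, range 88.5% to 91.3%), FOSL2 7.91% ± 0.824, FOS 1.53% ± 0.347 and FOSB 0.404% ± 0.0622. FOS was a small share in every condition, at 1.22% ± 0.114 in DMSO, 1.94% ± 0.121 in stearate+DMSO and 1.5% ± 0.183 in oleate+DMSO (SD, n = 3). These shares compare TPM, which is scaled by transcript length, and say nothing of protein.

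The Jun transcripts were more evenly divided. Their sum was 181 ± 5.15 TPM in control, 203 ± 9.90 TPM in stearate and 192 ± 7.83 TPM in oleate samples (SD, n = 6). JUNB, which often restrains growth where JUN promotes it, took 49.5% ± 1.29 of the sum in DMSO, 53.3% ± 1.60 in stearate+DMSO and 46.6% ± 0.806 in oleate+DMSO (SD, n = 3). The JUN share moved the other way, at 33.4% ± 0.185, 29.4% ± 0.904 and 36.5% ± 1.12 in the same conditions. JUN itself averaged 60.1, 60.7 and 71.7 TPM there, so its lower share with stearate did not come with a lower JUN value. With CAY10566 the JUNB shares were 46.5% ± 1.73 without fatty acid (47.5% without replicate 3), 52.7% ± 0.6 with stearate and 47.3% ± 0.748 with oleate. The lowest JUNB share in the stearate+DMSO samples was 51.47% and the highest in the DMSO samples was 51.02%, a small gap. No test was made on the shares.

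**Figure D2:**
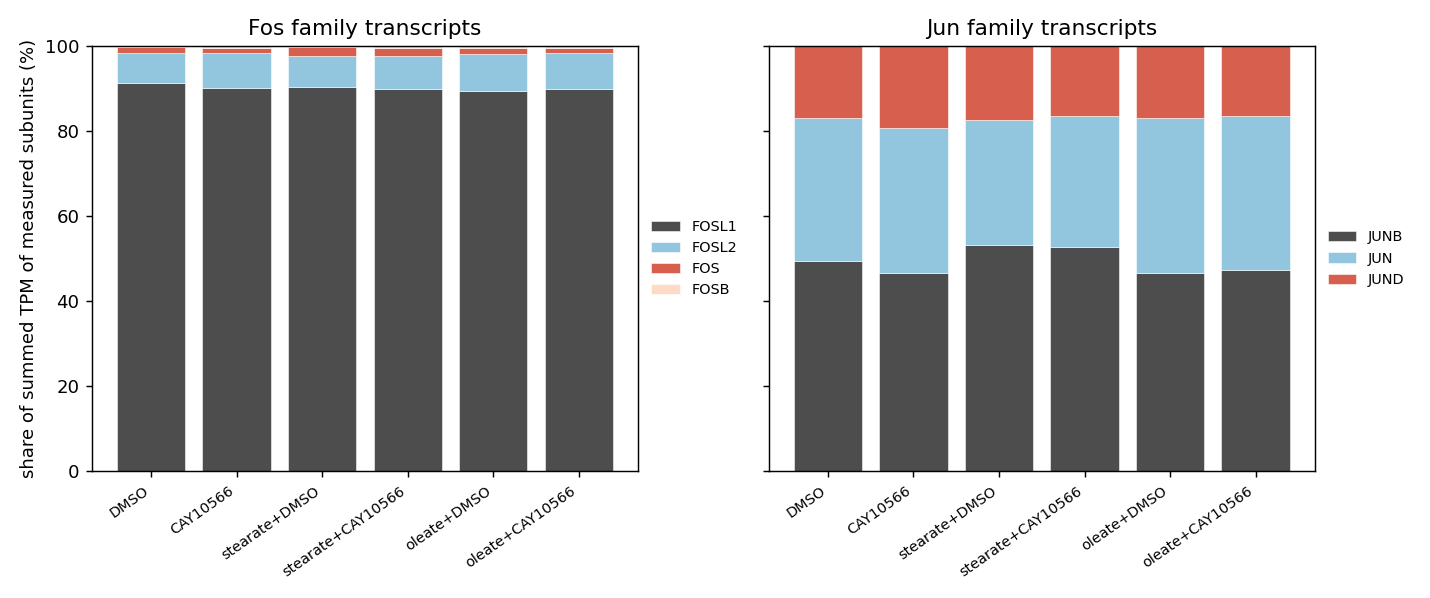
Mean share (%) of each subunit in the summed TPM of the Fos family (left) and of the Jun family (right), by condition (n = 3 each). FOSL1 fills 89.5% to 91.2% of the Fos bars in all 6 conditions, and the JUNB part of the Jun bars is tallest in stearate+DMSO (53.3%) and stearate+CAY10566 (52.7%).

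The first comparison, stearate against control, asked which members differed after 24 h with a saturated fatty acid. EGR1 was 20.91, 19.88 and 19.53 TPM in the DMSO samples and 50.43, 42.81 and 45.50 TPM in the stearate+DMSO samples. With CAY10566 it was 18.04, 18.46 and 19.19 TPM without fatty acid and 37.43, 36.82 and 40.78 TPM with stearate. All 6 stearate samples lay above all 6 controls, and the ratio of means was 2.30 with DMSO and 2.07 with CAY10566. The pooled log2 fold change was 1.08 (SE 0.071, n = 6 per group), on the log2(TPM + 1) scale used for all fold changes here. It ranked 14 among the rises of the 13789 tested genes. EGR1 was selected on this rise, and no p is given for it.

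Of the other 9 members, 4 rose with stearate (limma, Benjamini-Hochberg FDR under 0.05) and 0 fell, beside 13.5% of all tested genes called higher and 5.97% called lower. FOS, the classical partner of JUN, went from 6.44, 6.88 and 5.86 TPM in DMSO to 10.36, 10.88 and 9.42 TPM in stearate+DMSO. Its values were 8.28, 6.38 and 6.77 TPM in CAY10566 and 8.58, 10.46 and 10.28 TPM in stearate+CAY10566. The 6 stearate samples did not overlap the 6 controls, although the gap between 8.28 and 8.58 TPM was small. The log2 fold change of FOS was 0.50 (SE 0.087, limma adjusted p = 0.000613), larger in size than that of all but 2.39% of tested genes.

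ATF3, a factor of the cell stress response that dimerises with Jun proteins, was 50.74, 49.67 and 51.13 TPM in DMSO and 68.03, 63.72 and 71.98 TPM in stearate+DMSO. With CAY10566 it was 50.27, 55.84 and 58.07 TPM without fatty acid and 68.50, 69.49 and 64.65 TPM with stearate. The groups did not overlap and the log2 fold change was 0.36 (SE 0.053, limma adjusted p = 0.000141). FOS and ATF3 were the 2 tested members that also passed the fold threshold, 0.32 on the log2 scale, as 3.46% of genes did as rises and 1.89% as falls.

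JUNB rose by less than FOS and ATF3 but had the smallest adjusted p of the 9. It was 87.40, 90.66 and 88.95 TPM in DMSO and 114.38, 108.82 and 107.07 TPM in stearate+DMSO, and 83.20, 85.50 and 84.71 TPM in CAY10566 and 101.51, 106.41 and 106.01 TPM in stearate+CAY10566. Every stearate sample was above every control sample. The log2 fold change was 0.30 (SE 0.034, limma adjusted p = 5.34e-06), under the fold threshold. IER2 rose by 0.15 on the log2 scale (SE 0.036, limma adjusted p = 0.00704), from 78.27 to 83.50 TPM in controls to 83.30 to 95.94 TPM with stearate, and 5 of its 6 stearate samples lay above all controls.

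The remaining 5 members did not pass the test. FOSL1, the most abundant AP-1 subunit, was 444.14 to 502.41 TPM in controls (median 482 TPM) and 446.30 to 484.51 TPM with stearate (median 462 TPM), with a log2 difference of -0.05 (95% interval -0.11 to 0.02). JUN differed by -0.01 (95% interval -0.08 to 0.07) and FOSL2 by -0.06 (95% interval -0.19 to 0.07). JUND differed by 0.07 (95% interval -0.10 to 0.23) and IER3 by 0.03 (95% interval -0.04 to 0.10). The intervals of FOSL1, JUN and IER3 were narrow, and that of JUND was wider. JUND was 43.63 TPM in stearate+DMSO replicate 1 and 31.10 to 33.82 TPM in the other stearate samples.

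In the DMSO samples alone all 4 of these calls held, beside 1723 genes higher and 532 lower. In the CAY10566 samples alone, 3 against 3, 1 held, that of JUNB (log2 fold change 0.31, limma adjusted p = 0.0174), beside 78 genes higher and 174 lower. Without CAY10566 replicate 3, 2 held in the CAY10566 samples, JUNB (0.31, limma adjusted p = 0.041) and ATF3 (0.34, limma adjusted p = 0.0499), beside 84 genes higher and 112 lower. After rescaling to median-of-ratios size factors, which turned the split of calls over all genes from 1856 higher and 823 lower into 1069 higher and 1413 lower, IER2 no longer passed (0.09, limma adjusted p = 0.0817).

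**Figure D3:**
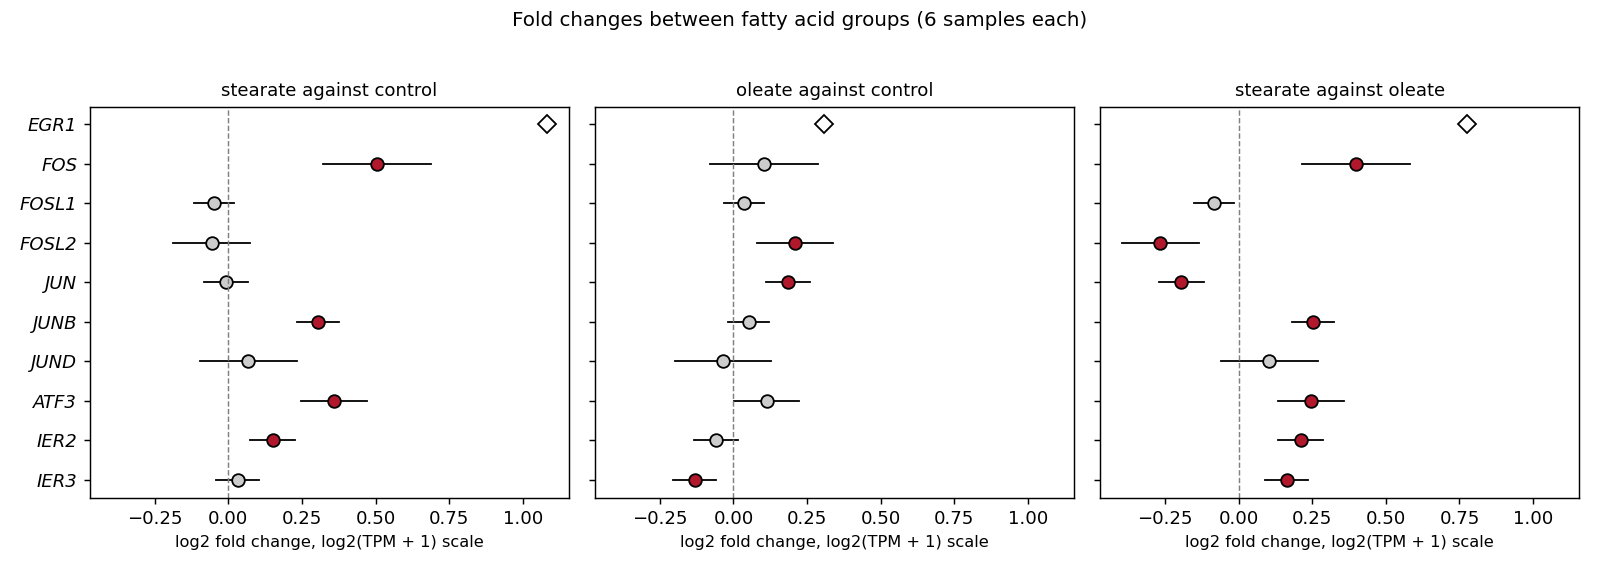
Log2 fold changes of the 10 members between fatty acid groups (n = 6 each). Circles are limma estimates with 95% intervals, red where the adjusted p was under 0.05, and open diamonds are EGR1 values that were described and not tested. FOS (0.50), ATF3 (0.36), JUNB (0.30) and IER2 (0.15) are red in the stearate panel, and FOSL2 (0.21), JUN (0.19) and IER3 (-0.13) in the oleate panel, where the EGR1 diamond is at 0.31.

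The second comparison, oleate against control, shared the control samples with the first. EGR1 was chosen on its difference from these controls and is again described with no test. Of the other 9 members, 2 rose and 1 fell, beside 23% of tested genes called higher and 2.7% called lower. The share of members that rose was close to that background, and 0 of the 9 passed the fold threshold, which 6.46% of genes did as rises. EGR1 was 25.66, 27.56 and 24.56 TPM in oleate+DMSO and 21.38, 23.92 and 22.33 TPM in oleate+CAY10566. All 6 values lay above the highest control (20.91 TPM) and below the lowest stearate sample (36.82 TPM). The log2 fold change of EGR1 was 0.31 (SE 0.071, no test).

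JUN was 60.12, 59.08 and 61.03 TPM in DMSO and 69.19, 72.85 and 73.14 TPM in oleate+DMSO. With CAY10566 it was 60.24, 60.91 and 65.82 TPM without fatty acid and 66.60, 70.43 and 66.48 TPM with oleate, so that the groups did not overlap. The log2 fold change of JUN was 0.19 (SE 0.036, limma adjusted p = 0.00283). Without CAY10566 replicate 3, the control sample with the highest JUN value, it was 0.21.

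FOSL2 rose by 0.21 on the log2 scale (SE 0.062, limma adjusted p = 0.0203), from a control range of 37.01 to 49.02 TPM (median 39.4 TPM) to 44.57 to 48.37 TPM (median 46.2 TPM). The groups overlapped through CAY10566 replicate 3 alone, at 49.02 TPM, since the next control was 39.56 TPM. Without that library the difference in FOSL2 was 0.27 (limma adjusted p = 0.000591), but without DMSO replicate 2 the call was lost (limma adjusted p = 0.0532). IER3 fell by 0.13 on the log2 scale (SE 0.034, limma adjusted p = 0.0106), from 557.08 to 635.38 TPM (median 601 TPM) in controls to 511.43 to 576.89 TPM (median 545 TPM) with oleate, and 4 of 6 oleate samples lay below every control. The lowest control was CAY10566 replicate 3, and the next, at 587.78 TPM, lay above every oleate sample.

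The other 6 members did not pass the test with oleate. FOS differed by 0.10 (95% interval -0.08 to 0.29) and ATF3 by 0.11 (95% interval 0.00 to 0.22). FOS was 7.36, 8.96 and 8.35 TPM in oleate+DMSO but 6.26, 6.12 and 7.20 TPM in oleate+CAY10566, so the samples with the inhibitor lay within the control range of 5.86 to 8.28 TPM. FOSL1 differed by 0.04 (95% interval -0.03 to 0.10), JUNB by 0.05 (95% interval -0.02 to 0.12), JUND by -0.04 (95% interval -0.20 to 0.13) and IER2 by -0.06 (95% interval -0.14 to 0.02).

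In the CAY10566 samples alone 0 members passed in either direction with oleate, also without CAY10566 replicate 3. Over all genes 0 were higher and 4 lower there, and 7 and 4 without that replicate, so few genes of any kind passed. In the DMSO samples alone the 3 calls held and FOS also passed (0.32, limma adjusted p = 0.0347), beside 3097 genes higher and 506 lower. FOS differed by -0.11 in the CAY10566 samples and by -0.14 in these without replicate 3. With size factors, which changed the calls over all genes from 3169 higher and 372 lower to 1225 higher and 1299 lower, FOSL2 no longer passed (0.11, limma adjusted p = 0.126), IER2 passed as lower (-0.16, limma adjusted p = 0.00662) and the JUNB difference turned from 0.05 to -0.05 without passing, and JUN (0.08, limma adjusted p = 0.0256) and IER3 (-0.23, limma adjusted p = 0.00271) still passed. EGR1 was 0.21 there.

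The fatty acids were next compared with each other, stearate against oleate at the same dose of 50 µM and the same time of 24 h. These comparisons share samples with the others. Stearate has no double bond and oleate has 1 in the cis configuration, and both have carbon chains of equal length. EGR1 was higher with stearate by 0.78 on the log2 scale (SE 0.071, no test). Of the other 9 members, 5 were higher and 2 lower with stearate than with oleate, beside 6.85% of tested genes called higher and 14.3% called lower.

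FOS was higher with stearate by 0.40 (SE 0.087, limma adjusted p = 0.00305), JUNB by 0.25 (SE 0.034, limma adjusted p = 2.82e-05) and ATF3 by 0.25 (SE 0.053, limma adjusted p = 0.00282). IER2 was higher by 0.21 (SE 0.036, limma adjusted p = 0.000398) and IER3 by 0.16 (SE 0.034, limma adjusted p = 0.00223). The JUNB and IER2 values of the 2 groups did not overlap, and the share of all genes without overlap here was not counted. FOSL2 was lower by -0.27 (SE 0.062, limma adjusted p = 0.00514) and JUN lower by -0.19 (SE 0.036, limma adjusted p = 0.000747), and neither gene's groups overlapped. Within the Jun family, JUNB was thus higher and JUN lower with stearate than with oleate, and within the Fos family the same held for FOS and FOSL2.

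FOS was the 1 tested member past the fold threshold in this comparison, as were 1.6% of genes as rises and 4.78% as falls. FOSL1 differed by -0.08 (95% interval -0.15 to -0.02, limma adjusted p = 0.0731) and JUND by 0.10 (95% interval -0.06 to 0.27), and neither passed. FOSL1 would pass without any of 3 samples, CAY10566 replicate 3 (limma adjusted p = 0.0393), stearate+DMSO replicate 1 (0.0449) or oleate+CAY10566 replicate 1 (0.0393), so its call turned on single libraries. In the DMSO samples alone 3 members passed as higher and 2 as lower, without FOS (0.28, limma adjusted p = 0.0887) and ATF3 (0.22, limma adjusted p = 0.106). In the CAY10566 samples alone 2 passed as higher (FOS and JUNB) and 0 as lower. Over all genes 479 were higher and 970 lower in the DMSO samples, and 117 and 394 in the CAY10566 samples. Size factors moved the calls over all genes from 945 higher and 1967 lower to 1445 higher and 1574 lower and changed no member's call.

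The last set of comparisons asked whether inhibition of SCD1 changed the members. None of the 10 passed the test for CAY10566 against DMSO over 9 against 9 samples with the fatty acid as a covariate, and 0% of all tested genes did (limma, FDR under 0.05). At an unadjusted p under 0.05 there were 4 members, EGR1, JUNB, IER2 and IER3, all lower with CAY10566, and 748 of 13789 genes (5.42%). EGR1 differed by -0.19 (SE 0.039, limma adjusted p = 0.246). It was chosen on control and stearate samples that enter this comparison. Its p and its place among the 4 are thus a description and no independent test. The other 3 differed by -0.07 each, with 95% intervals of -0.12 to -0.03 for IER3, -0.12 to -0.02 for JUNB and -0.12 to -0.01 for IER2. All 4 fail the correction over all genes.

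EGR1 was lower with CAY10566 than with DMSO, without overlap, in each of the 3 fatty acid groups, which held for 6 of the 13789 genes (0.0435%). The log2 differences were -0.11 without fatty acid (SE 0.067), -0.26 with stearate (SE 0.067) and -0.19 with oleate (SE 0.067, limma adjusted p = 0.979). EGR1 was chosen on the control and stearate samples, so the first 2 differences and the share of 6 genes describe it and do not test it. Neither of those 2 differences passed the correction over all genes. Ordered by mean, EGR1 ran from stearate+DMSO (46.2 ± 3.86 TPM) through stearate+CAY10566 (38.3 ± 2.13 TPM), oleate+DMSO (25.9 ± 1.52 TPM), oleate+CAY10566 (22.5 ± 1.28 TPM) and DMSO (20.1 ± 0.717 TPM) to CAY10566 (18.6 ± 0.582 TPM; SD, n = 3). No 2 neighbours in this order overlapped, but the gaps were small between oleate+CAY10566 (lowest 21.38 TPM) and DMSO (highest 20.91 TPM) and between DMSO (lowest 19.53 TPM) and CAY10566 (highest 19.19 TPM).

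Within fatty acid groups 0 of the 10 members passed, beside 0% of all genes without fatty acid, 0.0145% with stearate and 0% with oleate. At an unadjusted p under 0.05 there were 1, 2 and 2 members, where 10.1%, 5.52% and 4.72% of all genes reached that level. EGR1 was 1 of the 2 with stearate, where its p is a description only. FOS with oleate had the largest difference in size, -0.29 (SE 0.106, limma adjusted p = 0.979), with 6.12 to 7.20 TPM in oleate+CAY10566 against 7.36 to 8.96 TPM in oleate+DMSO and no overlap.

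The interaction terms, which test whether the response to a fatty acid differed with the inhibitor, passed for 0 of the 9 members other than EGR1 with stearate and for 0 of 10 with oleate, beside 0.00725% and 0% of genes. At an unadjusted limma p under 0.05 there were 0 members for stearate and 1 for oleate, FOS, where 9.36% and 10.3% of genes reached that level. For EGR1 and stearate the term was -0.15 (SE 0.094, no test). For FOS and oleate it was -0.43 (95% interval -0.75 to -0.11, limma adjusted p = 0.449). For JUND the terms were -0.30 with stearate (95% interval -0.61 to 0.01) and -0.29 with oleate (95% interval -0.60 to 0.02). JUND was 39.74 TPM in CAY10566 replicate 3 and 27.94 to 33.34 TPM in the other controls. Without that library the JUND terms were -0.21 and -0.20, and without stearate+DMSO replicate 1 the JUND term with stearate was -0.16.

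**Figure D4:**
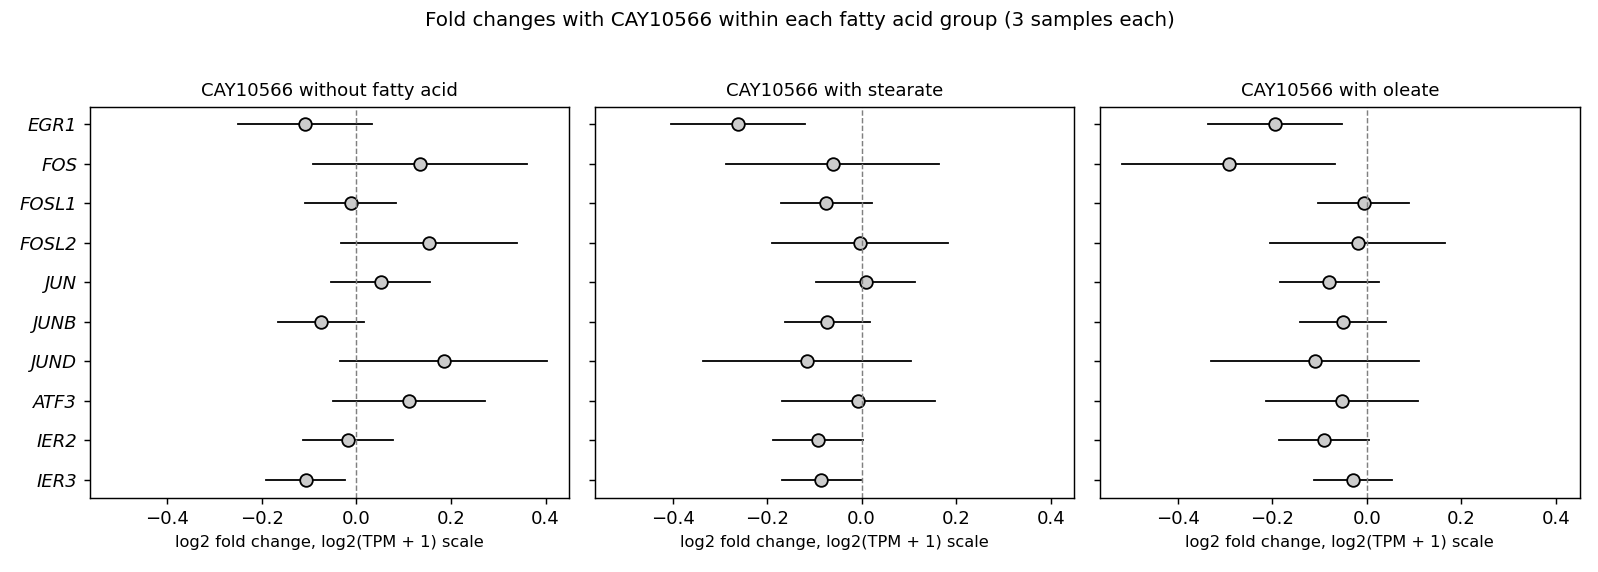
Log2 fold changes of the 10 members with CAY10566 against DMSO in each fatty acid group (3 against 3 samples). Circles are limma estimates with 95% intervals, all grey because 0 of 30 adjusted p-values were under 0.05. EGR1 lies left of 0 in all 3 panels (-0.11, -0.26 and -0.19), a description of a gene chosen on its stearate values.

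Lists of related genes, chosen by known function, were read from the same fits and counted over all their tested genes. The counts stand beside 13.5% of all genes higher and 5.97% lower with stearate (median log2 fold change 0.06), 23% and 2.7% with oleate (median 0.09), and 6.85% and 14.3% in stearate against oleate (median -0.03). In the list of EGR factors and their NAB corepressors 2 of 5 genes were expressed enough to be tested, and both rose with stearate. NAB1 was 14.4 TPM in controls and 18.3 TPM with stearate (log2 fold change 0.33, SE 0.074, limma adjusted p = 0.00475), and NAB2, itself a known target of EGR1 and counted in that list too, 11.2 and 13.4 TPM (0.23, SE 0.051, limma adjusted p = 0.00369). The median of this list was 0.28 with stearate. With oleate NAB1 passed as higher (0.25, limma adjusted p = 0.0192) and NAB2 differed by 0.05 (limma adjusted p = 0.515).

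Among 10 tested genes known as EGR1 targets, 3 rose and 2 fell with stearate (median 0.03), 2 rose and 1 fell with oleate (median 0.08), and 4 were higher and 3 lower with stearate than with oleate (median 0.04). F3, which encodes the coagulation starter tissue factor, was 372 TPM in controls, 127 TPM with stearate and 416 TPM with oleate. Its log2 difference from control was -1.54 with stearate (SE 0.047, limma adjusted p = 6.55e-14) and 0.16 with oleate (SE 0.047, limma adjusted p = 0.0202). ICAM1, a leukocyte adhesion molecule, rose with stearate from 271 to 396 TPM (log2 fold change 0.55, SE 0.047, limma adjusted p = 1.83e-07). THBS1, an extracellular matrix glycoprotein, rose with oleate from 26.6 to 39.4 TPM (0.57, SE 0.092, limma adjusted p = 0.0013) and differed by -0.20 with stearate (limma adjusted p = 0.142). The genes of this list that moved thus did so in both directions.

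Of 9 tested genes known as AP-1 targets, 2 rose and 4 fell with stearate (median -0.09), 4 rose and 0 fell with oleate (median 0.10), and 1 was higher and 5 lower with stearate than with oleate (median -0.28). IL6, a cytokine, fell with stearate from 106 to 74.2 TPM (-0.52, SE 0.068, limma adjusted p = 3.11e-05). The collagenase MMP1 fell from 5.28 to 2.99 TPM (-0.65, SE 0.094, limma adjusted p = 0.000111). The stromelysin MMP10 is counted among the 4, but it passed the TPM filter only through the control and oleate samples (1.28 and 1.13 TPM, beside 0.755 TPM with stearate), so its fall is given as values near that limit. IL6 and MMP1 were also lower with stearate than with oleate, by -0.65 (limma adjusted p = 1.16e-06) and -0.52 (limma adjusted p = 0.000634).

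In the list of 10 tested AP-1 partners and small MAF factors, 1 rose and 1 fell with stearate (median 0.00) and 5 rose and 0 fell with oleate (median 0.17). MAFK, a small MAF protein, was lower with stearate than with oleate (53.1 and 67.2 TPM, log2 difference -0.33, limma adjusted p = 0.000226), 1 of 3 genes lower in that comparison, where 0 were higher (median -0.14).

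Among 35 other immediate-early genes, 8 rose and 9 fell with stearate (median -0.02), and 16 rose and 3 fell with oleate (median 0.13). NFKBIZ, a nuclear regulator of NF-κB, rose with stearate from 20.1 to 27.9 TPM (0.46, SE 0.077, limma adjusted p = 0.000476). In stearate against oleate 4 were higher and 14 lower (median -0.11), and the largest of the 7 falls past the fold threshold were the kinase SGK1 (-0.48, limma adjusted p = 8.57e-08), the zinc finger factor KLF6 (-0.44, limma adjusted p = 4.89e-05) and the mRNA decay factor ZFP36L1 (-0.43, limma adjusted p = 8.56e-05).

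Of 17 kinases and promoter-bound factors that act upstream of these genes, such as serum response factor and its ETS and MRTF partners, 2 rose and 0 fell with stearate (median 0.10), and 9 rose and 0 fell with oleate (median 0.19). Rises with oleate past the fold threshold included the RSK kinase gene RPS6KA2 (28.6 to 36.8 TPM, 0.37, limma adjusted p = 0.0159) and CREB1, which binds the cyclic AMP response element (0.37, limma adjusted p = 0.0102). In stearate against oleate 0 were higher and 3 lower (median -0.08). Over all genes, size factors gave 8.89% higher and 9.43% lower with oleate, and 7.76% and 10.3% with stearate. With size factors the counts for oleate against control were 5 higher and 1 lower of the upstream factors, 5 and 4 of the other immediate-early genes, 3 and 0 of the AP-1 partners, 1 and 1 of the AP-1 targets and 1 and 1 of the EGR1 targets. For stearate against control they were 2 and 1, 6 and 12, 0 and 2, 1 and 5, and 3 and 3 in the same order, and NAB1 and NAB2 both still passed, while neither passed with oleate. For CAY10566 against DMSO 0 genes of any of the 6 lists passed, where list counts at an unadjusted limma p under 0.05 ran from 0 to 3.

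The genes whose condition means most resembled those of EGR1 were, among 1211 genes with a mean of at least 5 TPM and a range of at least 0.5 on the log2 scale, ICAM1 (Pearson r = 0.991 over 6 condition means), ID3 (0.986), SERPINB8 (0.986), SERTAD1 (0.985) and EPDR1 (0.983). ID3, an inhibitor of basic helix-loop-helix factors, averaged 15.1, 22.5 and 17.0 TPM in control, stearate and oleate samples. For FOSL1, whose own condition means spanned 0.12 on the log2 scale, they were NTN4 (r = 0.976), IL6 (0.937), the genes ENSG00000272114 (0.937) and ENSG00000250271 (0.922), and CCDC85C (0.914). The condition means share libraries and the same total, and these coefficients describe likeness of pattern over 6 points with no test.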

How the data were processed

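RNA from 18 samples of OVCAR5 cells, 3 in each of 6 conditions, was sequenced from a stranded poly(A) library. Per the submitters' notes the authors trimmed reads with Trim Galore and aligned them with STAR 2.7.1a to GRCh38, and they deposited TPM per gene, estimated with RSEM per the study's methods. TPM sums to the same total in every sample, so a value is relative to all other transcripts, and fewer cells or less RNA per cell cannot be told apart from it. Left out was 1 line without a gene name, and 56321 identifiers (93.1%) matched a symbol.

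Tests used limma 3.58.1 in R 4.3.3 (lmFit and trended eBayes). The values were log2(TPM + 1), and the 13789 genes averaging 1 TPM or more were kept, with Benjamini-Hochberg adjustment over all of them, an FDR threshold of 0.05 and, where stated, a fold change over 1.25. The fits were 3 fatty acid groups, fatty acid with CAY10566, and 6 conditions with interactions. The pipeline was tested on simulated data. Gene positions are those of GENCODE release 44 and promoter windows those of RefSeq. Figures used matplotlib 3.10.9 in Python 3.11.15.

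The members, lists and tests were chosen with earlier results of these data known. Named were all members, up to 3 genes per list and comparison past both thresholds with the largest changes, the 5 genes most like EGR1 and FOSL1, cell type markers, and NAB2 and the listed genes under the TPM filter, which were named after their values were seen. EGR1 was to be tested with oleate and for its interaction with stearate and CAY10566, and those tests were dropped because they share samples with its choice. The comparisons of EGR1 between CAY10566 and DMSO, without fatty acid, with stearate and over all samples, share samples with it too. They were kept as a description. Some genes that met the rule are not reported here. A fold change given with other genes' values, such as that of F3 with oleate, stands beside the one that named the gene. Alternatives were a pseudocount of 0.1, no TPM filter or a minimum mean of 5, untrended eBayes, median-of-ratios size factors, a replicate block, CAY10566 as a covariate, DMSO or CAY10566 samples only, and each sample left out.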

Additional observations from a re-analysis of the deposited data

Results flagged for a closer look

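A total of 30 groups of 6 samples (each of the 10 members in control, stearate and oleate) were examined for a sample far from the others, a test that chance alone meets in about 1 in 20 groups, and 3 were met. FOSL2 was 49.02 TPM in CAY10566 replicate 3, next to 39.56 TPM in the nearest control. JUN was 65.82 TPM in the same library, next to 61.03 TPM. JUND was 43.63 TPM in stearate+DMSO replicate 1, next to 33.82 TPM in the nearest stearate sample. CAY10566 replicate 3 is also the control library that stood apart on the first principal component, and stearate+DMSO replicate 1 was at 10.1 on that component, where the other stearate samples ran from -11.9 to 2.25.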

How the results depend on the processing

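Of 2280 member values recomputed under the alternatives, 0 called values turned direction, 25 lost their call and 6 gained one. Of 1080 values in the 4 main comparisons, 27 changed sign, none of them called (largest size with the main settings 0.10 on the log2 scale). With the CAY10566 samples only, members higher with stearate went from 4 to 1, members higher and lower with oleate from 2 and 1 to 0 and 0, and members higher and lower with stearate than with oleate from 5 and 2 to 2 and 0. The calls over all genes shrank as well in these samples, with 78 higher and 174 lower for stearate against control (1856 and 823 with all samples), 0 and 4 for oleate against control (3169 and 372), and 117 and 394 for stearate against oleate (945 and 1967). In the DMSO samples only, of the same size, 1723 genes were higher and 532 lower with stearate than in control, 3097 higher and 506 lower with oleate, and 479 were higher and 970 lower with stearate than with oleate. Size factors gave 1069 and 1413, 1225 and 1299, and 1445 and 1574 in the 3 comparisons, and without a TPM filter 246 genes were lower with oleate. The cause of these changes was not tested. With the DMSO samples only, members higher with stearate than with oleate went from 5 to 3. With size factors, members higher with oleate went from 2 to 1 and members lower with oleate from 1 to 2. Over the fits that left out 1 sample, members higher with oleate ran from 1 to 3. The CAY10566 samples without CAY10566 replicate 3, 2 controls against 3, were tried after seeing the data and gave 2 members higher with stearate, 0 higher and 0 lower with oleate, and 3 higher and 0 lower with stearate than with oleate, where all genes gave 84 higher and 112 lower, 7 and 4, and 170 and 629. EGR1 against control was 1.01 to 1.16 with stearate over 28 alternatives. For FOS and ATF3 with stearate the call was lost with the CAY10566 samples only, where the log2 fold changes were 0.41 and 0.30 (limma adjusted p = 0.131 and 0.0578; 0.50 and 0.36 with all samples). For JUN and IER3 with oleate it was lost there too, at log2 fold changes of 0.12 and -0.09 (limma adjusted p = 0.524 and 0.53), or 0.16 and -0.12 without CAY10566 replicate 3, and EGR1 was 0.27 and 0.29. Leaving out each of 18 samples in turn moved the call of FOSL2 with oleate (lost without DMSO replicate 2, limma adjusted p = 0.0532), of ATF3 with oleate (gained without CAY10566 replicate 3, 0.0453) and of FOSL1 in stearate against oleate.

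The replicate numbers gave no clear sign of pairing. Deviations from condition means correlated with a median r of 0.012 (-0.18 to 0.10) for same-numbered samples and -0.011 for other numbers. Of 18 libraries, 9 were closest to their own number, and pairing is not excluded by these values. With a replicate block, 4 members rose with stearate, 2 rose and 1 fell with oleate, and 5 were higher and 2 lower with stearate than with oleate, as without it. Over all genes the block gave 1715 higher and 789 lower, 2978 and 358, and 888 and 1894 in these comparisons. The EGR1 difference with CAY10566 was then -0.19 (limma adjusted p = 0.512). TPM gives no depth, so a difference of low genes such as FOS can be judged only by the spread between samples. For the fatty acid groups that is the spread of 6 samples, with and without CAY10566 together, and for the 6 conditions that of 3. In limma each spread is moderated with those of all genes. Changes in total RNA per cell are not visible in TPM.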

Other observations

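Among the 91 genes of the 6 lists, 9 had a mean under 1 TPM and were not tested. EGR2, a paralogue of EGR1, was 0.62 to 0.85 TPM in control, 1.11 to 1.37 TPM in stearate and 0.66 to 1.09 TPM in oleate samples, so that its stearate values overlapped neither other group at this low level. EGR3 was 0.05 to 0.30 TPM in control and 0.08 to 0.60 TPM in stearate samples, and EGR4 was 0.28 to 0.53 and 0.20 to 0.70 TPM. NR4A3, DUSP2, MMP3 and MMP13 had means of 0.272, 0.013, 0.768 and 0.639 TPM, and MAF was listed at 0 in all 18 samples. FOSB, the least abundant Fos transcript, averaged 1.99 TPM in control, 2.02 TPM in stearate and 2.42 TPM in oleate samples and did not pass in either comparison with control (limma adjusted p = 0.938 and 0.156).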
